A study of Arabidopsis thaliana and Zea mays with 12 samples.

Results

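Leaf transcripts of Arabidopsis thaliana were compared between plants labelled phenotype Br and plants labelled phenotype Ag, with 3 one-colour Affymetrix ATH1 arrays of each. The labels give no strain, genotype or treatment behind the names Ag and Br. All plants were grown from seed for 2 weeks and taken near the middle of the light period, and RNA of several plants was pooled for each array, so an array stands for a pool and not for a plant. The series has 12 arrays, and the other 6 hold maize RNA. The genes described are those read by a probe set that the platform annotation pairs with exactly 1 gene. These numbered 13513 of the 22746 probe sets left after the manufacturer's controls were removed, and they covered 13355 genes. Only 1580 of the probe sets carried a gene symbol. The other 11933 carried a locus code alone, in which the digit after "AT" is the chromosome, and such genes are given below by that code, with no role unless the TAIR10.1 gene table names one.

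A probe set is a group of short probes for one transcript, and its intensity is the brightness left by bound, labelled RNA. Plants of one species commonly differ in defence genes, in the enzymes that attach sugars or oxygen to small molecules, and in the breakdown of amino acids, and single genes can range from full expression to near silence. The leaf itself depends on both the nuclear and the plastid genome, which each encode parts of the photosynthetic machinery. A probe set can also lose signal where the plant's sequence differs from the probe. That was not tested, and it applies to every gene below. In tissue, fewer cells of a type and less RNA per cell cannot be told apart.

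Br replicate 1 lay apart from the other Br arrays. Its own value is given below for many genes, while others have only the range of their group or the log2 change. Between Br replicates 2 and 3 the root mean square difference over all probe sets was 0.30 on the log2 scale. Br replicate 1 differed by 0.43 and 0.45 from these 2 arrays, and by 0.42, 0.45 and 0.50 from Ag replicates 1, 2 and 3. It was thus about as far from its own group as from Ag. Differences within Ag ran from 0.34 to 0.42, and those from Br replicates 2 and 3 to the Ag arrays from 0.47 to 0.56. Array medians ran from 32.3 to 37.5. Leaf markers were bright in both groups: LHCB4.1, an antenna protein of photosystem II, and RCA, the activase of Rubisco, had mean intensities of 5680.4 and 4966, and neither was called. Of the other leaf markers looked for, and of the flower, seed and vascular markers, none had a one-gene probe set. The epidermis and guard cell markers FMA and SPCH and the senescence marker SAG101 were not called. Of the root markers EXPA7 and PYK10 the summed intensity was 170 to 253 in Ag, 442 on Br replicate 1, and 128 and 81.5 on Br replicates 2 and 3.

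Of the 13513 one-gene probe sets, 273 (2.02%) were called, meaning that their limma adjusted p was under 0.05, with 128 higher and 145 lower in Br. The balance of directions depended on the scaling and the arrays: 46.9% of calls were higher in Br, against 53.9% with values as deposited and 54.0% without replicate 1 of both groups. Over all 22746 probe sets the share was 2.08% (0.963% higher and 1.12% lower), so the annotated genes were called about as often as the rest. A change of at least 2-fold was found for 173 of the 273, 83 higher and 90 lower. The median log2 change of all one-gene probe sets was -0.0032. In all 273 the 3 Br arrays lay on 1 side of the 3 Ag arrays, which was true of 19.3% of one-gene and 20.4% of all probe sets. Calls were spread over the chromosomes, with 1.70%, 1.95%, 2.03%, 2.49% and 2.12% of the probe sets of chromosomes 1 to 5 called. They were rare among dim probe sets: 1, 13, 74, 87 and 98 calls fell in the 5 groups of equal size from the dimmest to the brightest. Pseudogenes, which were dim as a class (median intensity 3.38 against 33.9 for protein-coding genes), had 6 calls among 989. Calls reached 3.04% of the probe sets with a symbol and 1.89% of those with a locus code only, whose median intensities were 53.9 and 24.5.

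**Figure D1:**
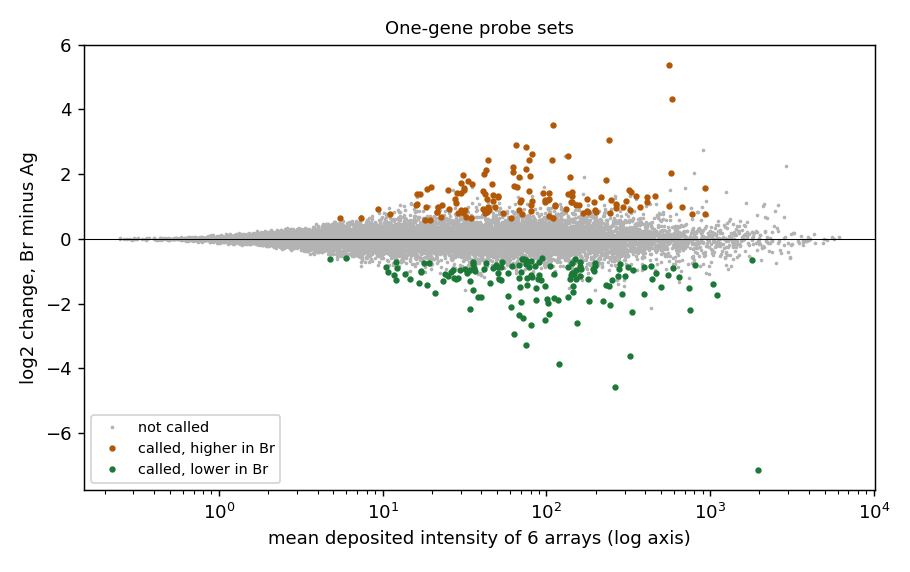
Log2 change (Br minus Ag, vertical axis) of each one-gene probe set against its mean deposited intensity over the 6 arrays (horizontal log axis); coloured points are the 128 probe sets called higher and the 145 called lower in Br. Calls lie on both sides and avoid the dim end, and AT2G25510 is the single point at -7.14.

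The largest falls took genes from bright in Ag to near the dim end of the scale in Br. AT2G25510 read 4291, 3904 and 3553 in Ag and 14.9, 11.8 and 4.31 in Br (log2 change -7.14, SE 0.19, limma adjusted p = 5.4e-05). It was the brightest of all called genes, and it was dim on every Br array. AT3G47250 read 479, 562 and 523 in Ag and 8.86, 7.83 and 3.15 in Br (log2 change -4.57, adjusted p = 6.9e-05). AT1G23960 read 258, 198 and 260.4 in Ag and 1.23, 0.526 and 2.77 in Br (-3.86, adjusted p = 1e-04). AT3G44430 read 146, 178 and 127 in Ag and under 1 on each Br array (0.769, 0.864 and 0.917; -3.29, adjusted p = 2.3e-04). In these 4 genes Br replicate 1 read near the other Br arrays. It stood a little higher in AT5G26270, which read 524, 696 and 619 in Ag and 54.9, 27.8 and 28.4 in Br (-3.62, adjusted p = 7.2e-04).

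Other falls among the 12 largest were smaller. AT5G45500 read 132, 106 and 136 in Ag and 5.67, 0.673 and 2.15 in Br (-2.93). AT1G65370 read 126, 120.4 and 205 in Ag and 11.7, 8.06 and 12 in Br (-2.65). AT1G11280 read 131, 129.6 and 135 in Ag and 14.4, 16.1 and 6.28 in Br (-2.44). The adjusted p of these 3 were 3.7e-04, 0.0017 and 0.0015. The aldo-keto reductase gene ATB2 read 283, 265 and 279 in Ag and 29.4, 30.4 and 38.8 in Br (-2.60, adjusted p = 3.5e-04), with every array close to its group's mean. All 9 of these falls passed without any 1 array. AT2G32160 (106 to 249 in Ag, 9.94 to 26.5 in Br, -2.50, adjusted p = 0.011) missed without Br replicate 2 (adjusted p = 0.064).

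The largest rise was in THI2.2, a thionin gene. Thionins are small cysteine-rich peptides that act against microbes. It read 5.46, 18.2 and 8.81 in Ag and 720.5, 1408 and 1216 in Br (log2 change 5.38, SE 0.31, limma adjusted p = 7.2e-04), with Br replicate 1 the lowest of the Br arrays. AT3G22240 reached the same height from a higher start, at 81.7, 31.1 and 25.7 in Ag and 886, 1333 and 1168 in Br (4.32, adjusted p = 0.0017). AT4G20480 read 8.53, 2.84 and 1.12 in Ag and 180.1, 228 and 236 in Br (3.53, adjusted p = 3.5e-04). In each of these the highest Ag array, replicate 1 or 2, was far below the lowest Br array.

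For several rises Br replicate 1 was level with the other Br arrays. AT3G19520 read 9.93, 1.06 and 0.23 in Ag and 130.3, 126 and 125 in Br (2.89, adjusted p = 7.8e-04). CSA1, a gene of the TIR-NBS-LRR class of immune receptors, read 3.02, 7.73 and 5.73 in Ag and 168, 135 and 129 in Br (2.84, adjusted p = 7.2e-04). AT2G35820 read 43.0, 15.9 and 24.9 in Ag and 253, 231 and 247 in Br (2.58, adjusted p = 0.0020). Br replicate 1 was the highest Br array in all 3. AT4G22040, annotated as a pseudogene, read 4.08, 1.10 and 1.59 in Ag and 71.5, 96.7 and 87.1 in Br (2.43, adjusted p = 7.2e-04); its probe set is of the type whose probes match more than 1 transcript, so the source of the signal is uncertain. These 4 genes, THI2.2, AT3G22240 and AT4G20480 passed without any 1 array.

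The remaining rises among the 12 largest rested on particular arrays. AT5G39640 read 18.5, 5.19 and 8.67 in Ag and 61.7, 206 and 168 in Br (2.44, adjusted p = 0.032), and without Br replicate 1 its log2 change was 2.92 (adjusted p = 0.0038). AT5G24480 went the other way, with Br replicate 1 at 326 against 151 and 116 on the other Br arrays and 14.3 to 25.6 in Ag (2.43, adjusted p = 0.020). AT5G39640 missed without any array but Br replicate 1 (adjusted p up to 0.14). AT5G24480 missed without any Ag array or without Br replicate 2 (adjusted p up to 0.10). AT5G55450 (1.43 to 20.2 in Ag, 128 to 191 in Br, 2.63) and AT3G23880 (1.69 to 20.3 in Ag, 107 to 125 in Br, 2.24) missed without Br replicate 2 or 3 (adjusted p up to 0.058 for each).

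**Figure D2:**
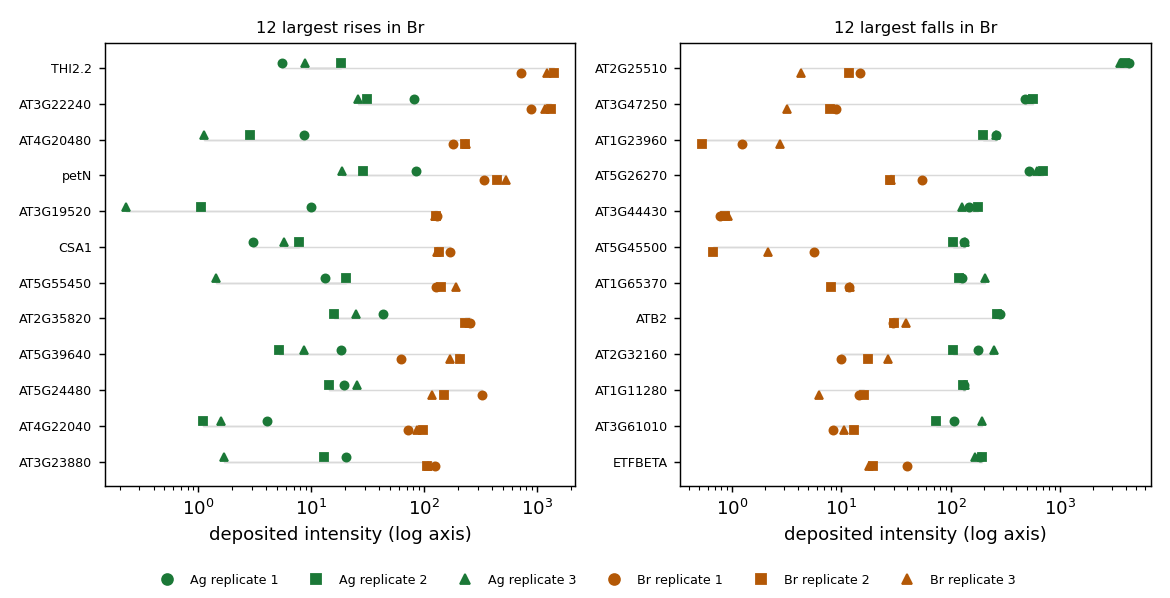
Deposited intensity on each of the 6 arrays (horizontal log axis) for the 12 called genes with the largest rise and the 12 with the largest fall in Br; green marks are Ag, orange marks Br, and the shape gives the replicate. The groups do not overlap in any row, which the choice of these genes required. Br replicate 1 (orange circle) is displaced toward Ag in AT5G39640, ETFBETA and AT5G26270.

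Of all 273 called probe sets, 48 passed without any 1 of the 6 arrays, 18 higher and 30 lower in Br. Besides those above they included the code-only genes AT3G26070 (230, 180 and 256 in Ag; 1176, 857 and 777 in Br; log2 change 2.02, adjusted p = 0.0050), AT5G16010 (1339, 1159 and 1233 in Ag; 327, 187 and 247 in Br; -2.20, adjusted p = 0.0050) and AT1G52590 (539, 495 and 654 in Ag; 91.2, 130.1 and 95.8 in Br; -2.26, adjusted p = 0.0020). These 3 were named after their values were seen, and the probe set of AT3G26070 matches more than 1 transcript. They were among the brighter of the 48.

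The breakdown of leucine, isoleucine and valine ends in the mitochondrion, where it also feeds electrons to respiration. Isovaleryl-CoA dehydrogenase (IVD) hands its electrons to the electron transfer flavoprotein, whose subunits are encoded by ETFALPHA and ETFBETA, and ETFQO passes them on to ubiquinone. MCCA and MCCB encode the subunits of methylcrotonyl-CoA carboxylase, the next enzyme of leucine breakdown, and ALDH6B2 a methylmalonate semialdehyde dehydrogenase of valine breakdown. Of 8 measured genes of this group 2 fell and 0 rose, where 2.02% of all one-gene probe sets were called, and the median log2 change was -1.45 against -0.0032 over all one-gene probe sets.

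ETFBETA read 185, 192 and 168 in Ag and 39.9, 19.5 and 17.8 in Br (-2.32 ± 0.20, adjusted p = 0.0032), and it passed without any 1 array. ETFQO read 258, 273 and 347 in Ag and 107, 78 and 32.3 in Br (-1.91 ± 0.34, adjusted p = 0.041). In both, Br replicate 1 was the highest of the Br arrays and still below every Ag array. IVD read 248, 157 and 267 in Ag and 107, 57.3 and 50.7 in Br (-1.49, adjusted p = 0.052). MCCA read 552, 872 and 622 in Ag and 414, 93.0 and 63.3 in Br (-2.14, adjusted p = 0.14). Its first Br array was thus nearer to Ag than to the other Br arrays. MCCB read 464, 501 and 599 in Ag and 503, 279 and 228 in Br (-0.66, adjusted p = 0.31), and ALDH6B2 read 536, 424 and 236 in Ag and 239, 102 and 92.9 in Br (-1.40, adjusted p = 0.15). For these last 2 genes Br replicate 1 read within the range of Ag.

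Without Br replicate 1, 6 of the 8 passed, all lower in Br, where 3.5% of one-gene and 3.89% of all probe sets passed in either direction. The log2 changes were then -2.91 for MCCA, -2.55 for ETFBETA, -2.22 for ETFQO, -1.81 for ALDH6B2, -1.77 for IVD and -0.98 for MCCB (adjusted p from 0.0015 to 0.044), on 2 Br arrays. Without any other single array 1 of the 8 passed. The exceptions were ETFALPHA, at 76.1, 76.6 and 84.5 in Ag and 82.4, 91.1 and 85.2 in Br (0.060, adjusted p = 0.86), and D2HGDH, which encodes a hydroxyglutarate dehydrogenase that also donates to the flavoprotein, at 60.7, 71.4 and 79.1 in Ag and 88.6, 78.7 and 78.7 in Br (0.14, adjusted p = 0.67). The group was drawn up by symbol with earlier results of these data known, those for ETFBETA and ETFQO among them. Its counts, its median and the falls of its members are thus not independent of its choice.

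**Figure D3:**
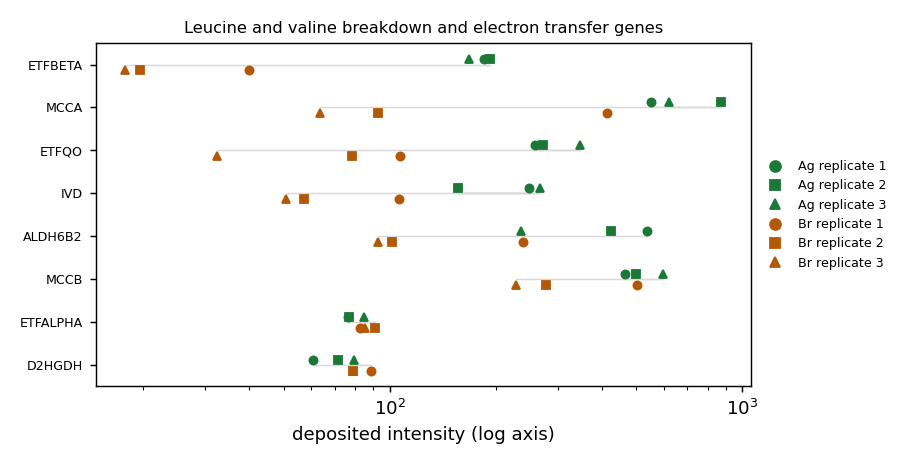
Deposited intensity on each array (horizontal log axis) for the 8 measured genes of branched-chain amino acid breakdown and electron transfer, ordered by log2 change. In 6 rows Br replicates 2 and 3 lie left of all Ag arrays; Br replicate 1 lies between them and Ag in ETFBETA, ETFQO, IVD and MCCA and among the Ag arrays in MCCB and ALDH6B2, while ETFALPHA and D2HGDH show no such gap.

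The position of Br replicate 1 was measured over the 473 one-gene probe sets that passed when it was left out. On a scale where 0 is the Ag mean and 100 the mean of Br replicates 2 and 3, it lay at a median of 60.5% (interquartile range 28.2% to 89.1%), and at 88.3% over the 48 that passed an adjusted p of 0.01. It was below 0 for 50 probe sets. For the genes higher in Br the median was 54.6%, and for those lower in Br it was 67.3%. Measured in the same way on the probe sets called without them, Br replicates 2 and 3 lay at 95.5% and 99.96%, and Ag replicates 1, 2 and 3 at 84%, 97.1% and 100.2% of the way from Br to the other Ag arrays. These sets are not alike: they held 61 and 66 probe sets for Br replicates 2 and 3 and 141, 65 and 78 for the Ag arrays, and the 88.3% of Br replicate 1 at the stricter threshold is nearer to them than its 60.5% over 473. The position of Br replicate 1 varied among genes: AT2G25510 and AT1G23960, dim on every Br array, were at 95.4% and 100.5%, while MCCA was at 21.8%.

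**Figure D4:**
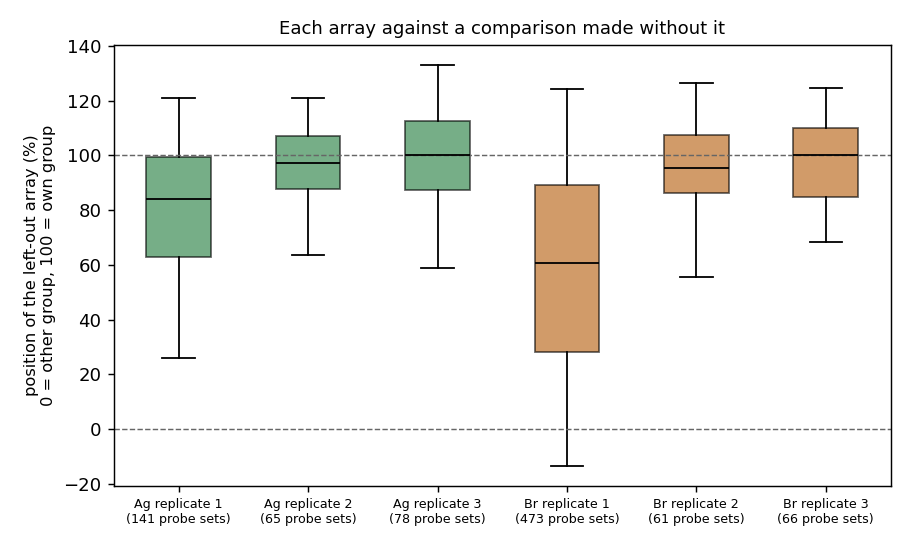
Position of each array (vertical axis, percent of the distance from the other group to the other arrays of its own group) over the one-gene probe sets called when that array was left out; boxes give the median and quartiles and whiskers the 5th and 95th percentiles. Br replicate 1 has a median of 60.5% over 473 probe sets and the widest spread, and Ag replicate 1 follows at 84% over 141; the other 4 boxes hold 61 to 78 probe sets each.

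Leaving out Br replicate 1 added 236 calls, 137 higher and 99 lower, and kept 237 of the 273. The largest added rise was AT3G28270, at 10.7, 15.0 and 11.8 in Ag and 23.3, 298 and 421 in Br (log2 change 2.57, adjusted p = 0.20; without Br replicate 1 3.68, adjusted p = 0.0019). The first Br array was near the Ag level there. AT1G13650 read 19.7, 64.1 and 92.6 in Ag and 96.3, 409 and 331 in Br (without Br replicate 1 2.52, adjusted p = 0.049). Of the added falls, AT1G21670 read 457, 366 and 357 in Ag and 418, 101 and 79.7 in Br (without it -1.98, adjusted p = 0.0083), and AT2G37130 read 321, 241 and 193 in Ag and 247, 71.4 and 47.0 in Br (-1.86, adjusted p = 0.023). In both falls Br replicate 1 lay inside the range of Ag. AT1G27570 read 31.8, 60.8 and 71.5 in Ag and 19.5, 1.87 and 5.11 in Br (-1.85, adjusted p = 0.030), with no overlap. With all 6 arrays these last 4 genes missed the threshold (adjusted p from 0.060 to 0.32).

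The plastid genome encodes core subunits of the photosystems, of the cytochrome b6f complex, of Rubisco and of the plastid ribosome. Of its 69 measured genes 2 rose and 0 fell (2.90% called, near the 2.02% of all one-gene probe sets), and 49 of the log2 changes were positive, with a median of 0.24 (0.17 with values as deposited and 0.096 with median centring). petN, for a small subunit of the cytochrome b6f complex, read 85.2, 28.5 and 18.7 in Ag and 342, 446 and 534 in Br (3.04, adjusted p = 0.013). rbcL, for the large subunit of Rubisco, read 261, 148 and 184 in Ag and 457, 466 and 596 in Br (1.33, adjusted p = 0.033). In both, Ag replicate 1 was the highest Ag array. Both missed without Ag replicate 2, Br replicate 2 or Br replicate 3, and rbcL also without Ag replicate 3 (adjusted p up to 0.076 and 0.13).

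The plastid count depended on the arrays kept. It was 11 without Ag replicate 1, 6 without Br replicate 1, 1 without Ag replicate 3, and 0 without Ag replicate 2, Br replicate 2 or Br replicate 3. With replicate 1 of both groups left out it was 18. Over all 13513 one-gene probe sets the calls in these fits numbered, in the same order, 141, 473, 78, 65, 61, 66 and 298. The same totals apply to the other family counts made without 1 array. psbD, for a reaction centre protein of photosystem II, read 616, 601 and 749 in Ag and 979, 2001 and 2528 in Br (1.46, adjusted p = 0.097; without Br replicate 1 1.88, adjusted p = 0.0085). ycf3, for an assembly factor of photosystem I, read 403, 230.0 and 215 in Ag and 454, 842 and 1261 in Br (1.51, adjusted p = 0.12; without Br replicate 1 1.91, adjusted p = 0.036). In these Br replicate 1 was the low array of its group. The ribosomal protein genes rps4 and rps2, named after their values were seen, had instead a high Ag replicate 1: rps4 read 3366, 561 and 513 in Ag and 4670.0, 4055 and 4175 in Br (2.26, adjusted p = 0.16).

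Among 23 nuclear genes of the photosystems, the antenna and electron flow, 2 fell and 0 rose, against 2.02% of all one-gene probe sets called. The median was -0.069, and it moved to -0.30 with values as deposited and to -0.37 with median centring, so no common shift can be read from it. CYTC6A, which encodes a cytochrome in the lumen of thylakoids, read 519, 418 and 411 in Ag and 148, 101 and 130.5 in Br (-1.71, adjusted p = 0.0061) and passed without any 1 array. LIL3:1, a light-harvesting-like protein that holds enzymes of chlorophyll and tocopherol synthesis, read 683, 938 and 736 in Ag and 471, 411 and 345 in Br (-0.89, adjusted p = 0.048). Leaving out any array but Br replicate 1 ended that call (adjusted p up to 0.17). Of 13 genes of tetrapyrrole and chlorophyll synthesis limma called 0, also at an unadjusted p of 0.05.

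Genes that control the redox state of proteins were called in both directions. Of 24 measured methionine sulfoxide reductase, thioredoxin, glutaredoxin and related genes 2 rose, 1 fell and 21 did not pass, with a median log2 change of 0.044, where 2.02% of all one-gene probe sets were called. MSRB5, which reduces oxidised methionine, read 134, 201 and 208 in Ag and 36.2, 43.8 and 40.4 in Br (-1.81, adjusted p = 0.0060) and passed without any 1 array. Its tandem relative MSRB6 read 276, 256 and 265 in Ag and 184, 285 and 129.0 in Br (-0.44, adjusted p = 0.45), with overlapping groups. The thioredoxin gene ty2 read 275, 302 and 205 in Ag and 546, 754 and 676 in Br (1.32, adjusted p = 0.019). The glutaredoxin gene GRXC2 read 485, 415 and 469.6 in Ag and 1026, 878 and 791 in Br (0.98, adjusted p = 0.024). Without any 1 array other than Br replicate 1, 1 of the 24 passed.

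Most enzymes that modify small molecules were not called. Of 50 measured UDP-glycosyltransferases, which attach sugars to hormones and phenolics, 1 rose and 3 fell, where 2.02% of all one-gene probe sets were called. UGT72E1, which acts on phenylpropanoids, read 193, 179.8 and 280.1 in Ag and 96.1, 71.4 and 47.4 in Br (-1.45, adjusted p = 0.040). UGT73B1 read 58.9, 85.6 and 96.7 in Ag and 34.5, 23.9 and 18.3 in Br (-1.27, adjusted p = 0.037). UGT84A3 fell from 88.7 to 101 in Ag to 52.5 to 59.2 in Br (-0.64), and UGT76E11 rose from 23.5 to 26.1 in Ag to 55.4 to 67.4 in Br (0.81). All 4 were small beside the largest changes above, and their groups did not overlap, as in every called probe set. None of the 50 passed without Ag replicate 2 or 3 or without Br replicate 2 or 3, 1 passed without Ag replicate 1, and 5 without Br replicate 1.

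Of 25 cytochrome P450 genes, whose enzymes add oxygen to small molecules, 1 rose and 2 fell, against the same background of 2.02%. CYP71B23 read 33.1, 30.5 and 50.5 in Ag and 9.16, 7.05 and 14.5 in Br (-1.10, adjusted p = 0.027). The next gene on chromosome 3 with a one-gene probe set, CYP71B24 of the same subfamily, read 15.1, 6.24 and 5.61 in Ag and 41.6, 38.9 and 30.9 in Br (1.04, adjusted p = 0.024). These neighbours thus differed in opposite directions. CYP71B37 read 14.7 to 22.4 in Ag and 1.16 to 6.05 in Br (-0.87). All 3 passed without Br replicate 1, 1 passed without Ag replicate 1, and 0 passed without any other single array.

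Of 29 serine carboxypeptidase-like genes 2 fell and 0 rose, where 2.02% of all one-gene probe sets were called. SCPL34 read 175, 207 and 225 in Ag and 92.0, 75.7 and 63.3 in Br (-1.25, adjusted p = 0.015), and scpl50 read 93.3, 122 and 119 in Ag and 42.5, 34.8 and 44.5 in Br (-1.22, adjusted p = 0.0098). Of 4 sulfate assimilation genes 1 fell: APS4, an ATP sulfurylase that activates sulfate, read 163, 118 and 108 in Ag and 45.9, 47.6 and 47.3 in Br (-1.24, adjusted p = 0.015), while its relative APS3 read 136 to 161 in Ag and 122 to 195 in Br (-0.014). SCPL34 and scpl50 missed without replicate 2 or 3 of either group, and APS4 without Ag replicate 2, Br replicate 2 or Br replicate 3 (adjusted p up to 0.081). AT2G25450, the second brightest called gene, read 2266, 2283 and 2295 in Ag and 1397, 1282 and 1299.8 in Br (-0.66, adjusted p = 0.032), and AT2G29670, the third, read 1519, 2174 and 1436 in Ag and 674, 452 and 337 in Br (-1.75, adjusted p = 0.025). Both missed without any array but Br replicate 1 (adjusted p up to 0.13). Of 14 glutathione transferases and 21 beta-glucosidases limma called 0, and 3 of each had an unadjusted p below 0.05.

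Genes of wall loosening were called in 1 direction only. Expansins loosen the wall as cells grow, and xyloglucan endotransglucosylases (XTH) cut and rejoin the polymer that ties cellulose together. Of 28 measured genes of these families 4 rose, 0 fell and 24 did not pass, with a median log2 change of 0.12. Over all probe sets 0.963% were called higher and 1.12% lower in Br. EXLA1 read 82.2, 36.9 and 28.6 in Ag and 186, 180.0 and 327 in Br (1.92, adjusted p = 0.040). XTH33 read 37.5, 3.01 and 21.4 in Ag and 127, 91.7 and 129.7 in Br (1.92, adjusted p = 0.045). XTH16 read 20.7, 34 and 42.0 in Ag and 91.5, 114 and 165 in Br (1.49, adjusted p = 0.040), and EXPB1 read 18.3, 13.2 and 21.5 in Ag and 47.1, 106 and 76.3 in Br (1.35, adjusted p = 0.045).

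In each of the 4 the groups were apart, as in every called probe set. The count was 4 without Br replicate 1, with XTH32 in the place of XTH33. It was 2 without Ag replicate 1 and 0 without any other single array. Among 45 genes of endoglucanases, cellulose synthase-like proteins and wall acetylation, the endoglucanase GH9C2 was the 1 called, against 2.02% of all one-gene probe sets. It read 262, 180.0 and 333 in Ag and 566, 611 and 518 in Br (1.14, adjusted p = 0.045). Each array left out in turn ended that call (adjusted p up to 0.18). Without Br replicate 1 that list had 4 other calls, all higher in Br: CSLA01, GH9B5, GH9B8 and TBL38. In that fit 3.5% of all one-gene probe sets passed.

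Defence and stress genes gave calls beyond THI2.2 and CSA1, where 2.02% of all one-gene probe sets were called. Of 15 thionins and plant defensins the second to rise was LCR68, at 602, 634 and 506 in Ag and 983, 907 and 1005 in Br (0.75, adjusted p = 0.040), which missed without any 1 array. Of 10 immune signalling genes CSA1 was the 1 called. Without Br replicate 1 a second, SGT1A, passed (43.8, 35.6 and 57.7 in Ag; 66.7, 93.8 and 109 in Br; log2 change 0.72 and adjusted p = 0.13 with all arrays). WRKY factors, which control defence genes, gave 0 limma calls among 6, and 1 had an unadjusted p below 0.05. DI21, a gene induced by drought, was the 1 called of 13 cold and drought genes, at 8.54, 12.5 and 17.7 in Ag and 97.4, 58.9 and 84.9 in Br (1.68, adjusted p = 0.012). It missed without Ag replicate 2 or Br replicate 3 (adjusted p up to 0.075).

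Transcription factors and signals were called in some families and not in others. The bHLH factors bHLH121 and bHLH104, both known from the response to iron, were the 2 called of 20, and both fell. Over all one-gene probe sets 2.02% were called, and 3.04% of those with a symbol. bHLH121 read 230.0, 384 and 424 in Ag and 128, 125 and 95.6 in Br (-1.43, adjusted p = 0.034). bHLH104 read 196, 208 and 193 in Ag and 80.2, 77.2 and 95.4 in Br (-1.12, adjusted p = 0.0076). Related iron response factors did not pass: ILR3 read 443 to 555 in Ag and 457 to 589 in Br (0.11, adjusted p = 0.79), and PYE read 36.3 to 68.6 in Ag and 32 to 47.9 in Br (-0.21, adjusted p = 0.70). The other relatives measured, bHLH34, bHLH115 and BHLH101, had log2 changes of 0.19, 0.056 and 0.13, and these 5 were chosen after their values were seen. AT1G22490, given as bHLH94 in the TAIR10.1 table, read 92.5, 70.1 and 20.2 in Ag and 34.2, 23.7 and 17.8 in Br (-0.85, adjusted p = 0.35). Both called factors missed without Ag replicate 2 or Br replicate 2 (adjusted p up to 0.14 and 0.053), and bHLH121 also without Ag replicate 3 or Br replicate 3. Of 40 MADS box and 17 bZIP factors limma called 0, and 3 and 0 had an unadjusted p below 0.05.

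The counts in the next families stand against 2.02% called of all one-gene probe sets. Of 18 RALF and CLE peptide genes, whose products are signals between cells, RALFL33 rose, from 81.7, 91.4 and 104 to 241, 213 and 183.0 (1.06, adjusted p = 0.019). Of 17 auxin genes GH3.9 rose, from 7.25 to 13.7 in Ag to 24.5 to 26.8 in Br (0.59, adjusted p = 0.048), and of 7 jasmonate and methyl transfer genes OPCL1, an enzyme of jasmonate synthesis, fell, from 124 to 146 in Ag to 62.5 to 80.4 in Br (-0.82, adjusted p = 0.033). RALFL33 and OPCL1 missed without any array but Br replicate 1, and GH3.9 without any 1 array (adjusted p up to 0.17). In proteolysis and traffic, the autophagy gene ATG8D rose from 114, 67.4 and 67.7 to 202, 217 and 179.7 (1.13, adjusted p = 0.038) among 10 measured, and VPS22, of the endosomal sorting complex, rose from 74.0, 65.6 and 63.9 to 175, 157 and 139 (1.02, adjusted p = 0.014) among 12. The plastid chaperonin Cpn60beta4 fell from 200.4, 205 and 213 to 90.5, 98.8 and 104 (-0.97, adjusted p = 0.0094) among 17 chaperones. These 3 missed without Ag replicate 2 or 3 or Br replicate 2, and ATG8D also without Br replicate 1 or 3 (adjusted p up to 0.15).

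Further called genes belonged to none of these groups, and the first 4 given here were chosen after their values were seen. HISN5B, of histidine synthesis, read 90.0, 56.1 and 75.9 in Ag and 159, 222 and 257 in Br (1.32, adjusted p = 0.030). ENOC, a cytosolic enolase, read 121, 149 and 150.2 in Ag and 232, 253 and 300.0 in Br (0.83, adjusted p = 0.042). WNK7, a protein kinase, read 46.2, 43.1 and 47.1 in Ag and 10.5, 6.35 and 19.7 in Br (-1.21, adjusted p = 0.018). DPL1, a lyase of sphingolipid breakdown, read 111, 81.8 and 101 in Ag and 51.3, 31.8 and 44.5 in Br (-1.02, adjusted p = 0.028). AT2G41480, which the TAIR10.1 table gives as peroxidase 25, read 10.7 to 15.4 in Ag and 28.2 to 35.8 in Br (0.68, adjusted p = 0.041). In each of the 5 the groups were apart, as in every called probe set. WNK7 missed without any Ag array or without Br replicate 2, and the other 4 without any array but Br replicate 1 (adjusted p up to 0.16).

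In all, 55 gene families were described by symbol, with 913 genes and 36 called, where 2.02% of all one-gene probe sets and 3.04% of those with a symbol were called. A call occurred in 20 of the families. The other 35, with 481 genes, had 0 limma calls. They included 16 genes of the citric acid cycle and 17 ion and metal transporters, each with 4 at an unadjusted p below 0.05, 17 genes of chromatin remodelling with 3, 22 of DNA repair and meiosis with 2, 15 receptor-like kinases with 2 and 8 histones with 1. Symbols cover a small part of the genes, so a family here is the part of it that the annotation names.

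Most called genes had no called neighbour. Only genes with a one-gene probe set and a locus code were put in order, so calls on other probe sets do not enter. The tested genes named here are these. In locus order, 26 of the 538 nearest tested neighbours of called genes were called (4.83%), against 2.03% of all 13264 tested genes in that order, and 14 of the 26 had the same direction. Within the 2 nearest on each side it was 44 of 1076 (4.09%). The difference between these shares was not tested. The 26 genes formed 13 pairs, 7 of 1 direction and 6 of opposite directions. ETFBETA and the adjacent AT5G43440 both fell, the latter from 137, 82.2 and 77.5 to 15.7, 20.7 and 18.9 (-1.76, adjusted p = 0.0098). AT3G60980 fell from 125, 125 and 74.1 to 18.3, 7.74 and 14.5 (-2.11, adjusted p = 0.0062) beside AT3G61010. In the order of tested genes AT5G45480 (-0.87) was next to AT5G45500, and AT2G32170 (-0.92) next to AT2G32160, the weaker fall in each pair. TAIR10.1 has 1 gene between AT5G45480 and AT5G45500, and 1 between AT3G60980 and AT3G61010. AT5G43440 missed without Br replicate 2 or 3 (adjusted p up to 0.061), and AT5G45480 and AT2G32170 without any array but Br replicate 1 (adjusted p up to 0.16). Neighbours with related sequences can share probes, which was not tested.

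Adjacent genes of opposite direction included AT2G29290, which read 1043, 1115 and 1214 in Ag and 394, 404 and 310.2 in Br (-1.52, adjusted p = 0.0042), and AT2G29300, which read 26.8, 17.3 and 19.0 in Ag and 68.9, 124 and 124 in Br (1.62, adjusted p = 0.018). HVA22C rose from 62.0, 76.2 and 65.4 to 190.5, 191 and 232 (1.38, adjusted p = 0.0066). The next gene in that order, AT1G69730, fell from 72.4, 47.8 and 77.7 to 1.68, 2.08 and 4.49 (-2.16, adjusted p = 0.0017). TAIR10.1 has 2 genes between them, which had no one-gene probe set. HVA22C, AT1G69730, AT2G29290 and AT3G60980 passed without any 1 array, and AT2G29300 missed without any but Br replicate 1 (adjusted p up to 0.091).

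A second probe set of the same gene tests another stretch of the transcript. Of 147 genes with more than 1 one-gene probe set, 3 had a call, where 2.02% of all one-gene probe sets were called. Both probe sets of AT3G61010 fell (-2.36 from 74.1 to 194 in Ag to 8.44 to 13.1 in Br, and -1.22 from 33.9 to 54.7 in Ag to 7.59 to 14.3 in Br). Both of AT2G40316 fell too (-1.09 and -0.73, adjusted p = 0.031 and 0.035). Those of AT3G61010 missed without Br replicate 2 or 3, the second also without Ag replicate 2 or 3, and those of AT2G40316 missed without any array but Br replicate 1, the second without that one too (adjusted p up to 0.13). AT4G13150 rose in 1 of its probe sets, from 70.2, 64 and 66.7 to 162, 159 and 154 (1.04, adjusted p = 0.0059), and in the dimmer one it read 17.9, 1.36 and 1.80 in Ag and 18.5, 14.3 and 22.9 in Br (0.62, adjusted p = 0.27). Over the 147 genes the median absolute difference between the log2 changes of the brightest pair of probe sets was 0.25. The other called genes were each read by 1 probe set.

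The 3'/5' intensity ratio of control transcripts, which rises as RNA is degraded or copied short, moved with the groups. For ubiquitin in the second control set it was 1.76, 2.35 and 2.01 in Ag and 1.21, 0.908 and 1.01 in Br. For GAPDH in the first control set it was 2.92, 2.39 and 2.68 in Ag and 1.93, 1.17 and 1.38 in Br. In both, every Ag array was above every Br array, and Br replicate 1 was the closest to Ag. The same order of groups held for actin in the second set (1.90 to 2.35 in Ag, 1.20 to 1.74 in Br) and ubiquitin in the first (3.37 to 5.22 and 2.27 to 2.94). For each of these 4 the two-sided exact permutation p was 0.10, the smallest that 3 arrays against 3 allow. Actin in the first set read 9.71, 11.2 and 12.5 in Ag and 9.88, 4.78 and 4.73 in Br (exact permutation p = 0.20), so that Br replicate 1 fell among the Ag arrays. For actin in the second set it did not, at 1.64 against 1.74 and 1.20 on Br replicates 2 and 3. GAPDH in the second set overlapped (exact permutation p = 0.20). The part of these ratios in the differences described above was not tested.

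**Figure D5:**
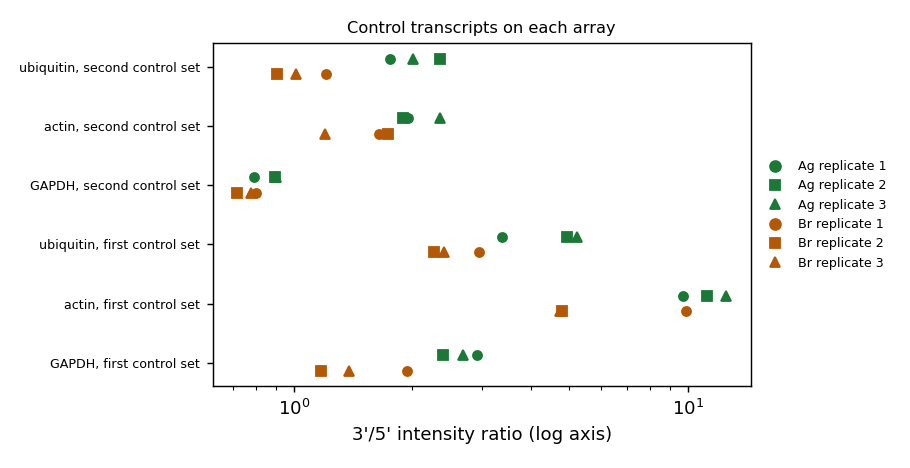
The 3'/5' intensity ratio (horizontal log axis) of 6 control probe set pairs on each array; green marks are Ag, orange marks Br, and the shape gives the replicate. Ag lies right of Br in 4 rows, and Br replicate 1 sits with Ag for actin in the first set at 9.88.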

How the data were processed

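Total RNA of pooled leaf tissue was labelled with biotin and hybridised to ATH1 arrays, per the labels' protocols. The authors deposited one intensity per probe set and array on a linear scale. The values show that each array had been scaled to a mean of 100 with the lowest and highest 2% left out. The software that summarised the probes is not given in the sources used here, and detection calls were not used here, so a dim gene cannot be called absent.

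The 64 control probe sets named AFFX were removed. Values were tested as log2(intensity + 16) after quantile normalization of the 6 arrays, using lmFit and eBayes of limma 3.58.1 under R 4.3.3 with two-sided p-values, which were adjusted by Benjamini-Hochberg over all 22746 probe sets with a threshold of 0.05. Adjusted p in the text are from this fit. A log2 change is Br minus Ag and, with 16 added, is smaller than the true change for dim genes. Intensities in the text are the deposited ones. Arrays of a group are labelled as biological replicates, and the p-values rest on the spread among 3 pools of plants in each. The number of arrays limits the precision. Families and neighbours are described with no test of the group. Matplotlib 3.10.9 drew the plots.

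Gene names came from the supplied platform annotation and the TAIR10.1 gene table, in which 13436 of the 13513 probe sets matched and 77 did not. A further 503 probe sets listed several genes and 8730 none, and they were tested but not described. Members, families and lists were chosen with earlier results of these data known, and the 55 families were written by symbol after the annotation was read. Of 35 classes set by words and locus codes, 16 had at least 3 members, and 8 of these had a call. The classes gave way to the families in the text because the tables hold few words on what a gene encodes. The genes named were the 12 largest called changes in each direction, the 2 largest of each class or family, the 3 brightest, the 4 in each direction called only without Br replicate 1, the genes of 6 pairs of neighbours, and genes with several probe sets. Other called members of a family, and relatives set beside a called gene, were named after their values were seen.

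Alternatives covered the pseudocount, the scaling, filters on dim probe sets, the replicate number as a block, eBayes with a trend, array weights, the threshold, 1 probe set per gene, and each array left out in turn. No columns of values lacked a sample. No promoter, protein or genome sequence was used here, so no motif was searched.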

Additional observations from a re-analysis of the deposited data

How the results depend on the processing

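Every one of the 273 called probe sets kept its direction under every alternative in which it was tested. The groups did not overlap in any of the 273, so leaving out an array could hardly reverse a direction. The kept directions are thus no sign of how firm the calls are. The count of calls moved to 83 with a pseudocount of 1, to 503 with array quality weights and to 64 at a threshold of 0.01, and it ran from 61 to 473 when 1 array was left out. The lowest was without Br replicate 2 and the highest without Br replicate 1; without Ag replicates 1, 2 and 3 it was 141, 65 and 78, and without Br replicate 3 it was 66. A fit with fewer arrays has less to estimate the spread from, and without Br replicate 1 the count rose all the same; the cause was not tested. The other settings refitted gave 193 to 362 calls. The replicate number as a block gave 193, with 169 of the 273 among them. The deviations of same-numbered arrays from their group means correlated at 0.32, 0.029 and 0.11 for replicates 1, 2 and 3. Those of differently numbered arrays ran from -0.25 to 0.23. The correlation between the first replicates of Ag and Br was thus the highest, and what they share was not tested. The labels do not say that a shared number pairs arrays, so the main fit left it out. Of the 66 called probe sets that the naming rule picked, 24 passed without any 1 array and 42 missed without at least 1. The median position of Br replicate 1 was 60.2% with values as deposited and 88.3% over the probe sets that passed a threshold of 0.01. No promoter motifs were searched. Signal near background limits dim genes, and 1 and 13 calls fell in the 2 dimmest of the 5 groups of probe sets.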
